A study of Gallus gallus with 31 samples.

Results

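SEMA3C, SEMA3F, NRP2 and SLIT3 are genes of axon guidance, here described in chicken fat. They are 4 of the 564 genes of the expression table analysed here and were found by their symbols: the secreted semaphorins SEMA3C (Entrez 374090) and SEMA3F (Entrez 374109), the semaphorin receptor NRP2, neuropilin 2 (Entrez 374157), and the secreted cue SLIT3 (Entrez 374173). The table holds a stretch of genes in order of gene number and not the whole genome. The data are 31 polyA RNA libraries of bulk fat from male birds of 42 days, all labelled as controls. Ross birds, described for this series as Ross 708 broilers, gave 4 cardiac libraries of a trial named Fall'13, 4 cardiac libraries of a trial named Fall'12, and the same numbers of abdominal libraries. The other line is labelled only as Illinois and gave 8 cardiac and 7 abdominal libraries, all of Fall'13. Cardiac fat lies around the heart and abdominal fat is the belly fat pad. What separates the trials other than their names is not stated in the labels.

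Class 3 semaphorins and slits are secreted proteins that steer growing nerve fibres and migrating cells. Class 3 semaphorins bind neuropilins, which have no strong signalling domain of their own and work together with plexin receptors, while slits signal through ROBO receptors. In mammals, NRP2 also binds lymphatic growth factors of the VEGF family and is found in veins and lymph vessels as well as in neurons. SEMA3F is best known as a repellent that acts through NRP2, in mouse nerves and vessels. SEMA3C guides neural crest cells into the outflow tract of the heart, and in human fat it has been described as a secreted product of fat tissue. SLIT3 has been linked in mice to sympathetic nerve supply of fat.

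The values are FPKM, in which the fragments of a gene are divided by its transcript length and by the library total. Levels can thus be set side by side between genes. Between libraries they also depend on how the total is shared among genes, so results of other scalings are given too. FABP4, the fatty acid carrier of fat cells, was the highest gene of the table in 31 of 31 libraries. It made up 8.17% to 48.6% of the FPKM summed over the genes of the table, which is not the library total. The other fat cell marker of a list of 10 that is in the table is PPARG. CASQ2, a calcium store protein of heart muscle, was above 10 FPKM in 4 cardiac libraries, Ross 1208 and 1209 of Fall'12 and Illinois 1107 and 1112. These 4 are called the CASQ2-rich libraries here. For each of the 4 guidance genes, a difference that uses them is also given with them left out. Differences of other genes are given with all libraries only. The Ross abdominal libraries of Fall'13 held 0.672 to 5.10 FPKM of CASQ2 and 0.261 to 6.13 FPKM of MYH7B, another heart muscle gene. The other abdominal libraries held at most 0.502 and 0.244 FPKM of them. MYH7B was also 18.8 and 11.3 FPKM in the cardiac libraries 1205 and 1114. Total depth is unknown, but the steps between low values gave relative depths of 0.618 to 1.05 in Ross libraries and 0.887 to 1.55 in Illinois libraries. Library numbers did not overlap between any 2 of the 6 groups, so a batch of library preparation, if there was one, cannot be told apart from depot, line or trial. In bulk tissue, fewer cells of a type and less RNA per cell cannot be told apart either.

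All 4 genes were detected in 31 of 31 libraries, with none at the floor value of 0.001, and all 4 passed the filter of at least 1 FPKM in at least 7 libraries. The receptor NRP2 was the most abundant of the set, with a median of 10.3 FPKM over all libraries, above 57.6% of the genes of the table. It was the highest of the 4 in 19 of 31 libraries and the lowest in 0 of 31. The medians of the ligands were lower, at 6.35 FPKM for SEMA3C, 5.62 for SLIT3 and 4.58 for SEMA3F. SEMA3C ran from 0.256 to 21.5 FPKM, SEMA3F from 1.32 to 23.4, SLIT3 from 1.27 to 20.5 and NRP2 from 1.02 to 45.9 FPKM.

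**Figure D1:**
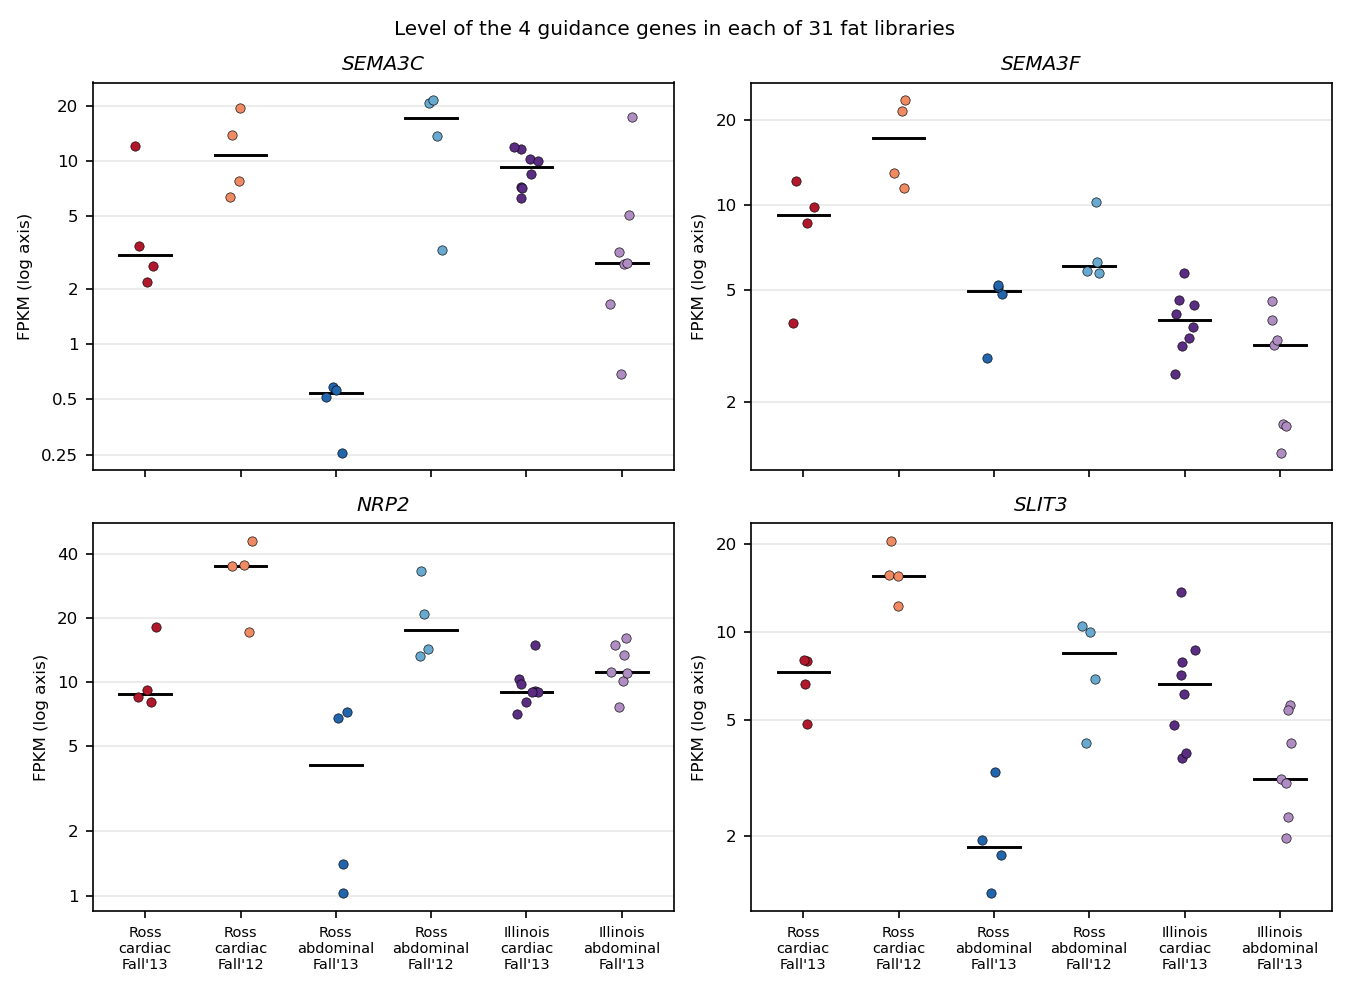
FPKM of SEMA3C, SEMA3F, NRP2 and SLIT3 on a log axis in each of 31 libraries, by line, depot and trial; each point is 1 library and each bar the median of its group. Ross abdominal fat of Fall'13 holds the lowest SEMA3C values, 0.256 to 0.586 FPKM, and Ross cardiac fat of Fall'12 the highest means of SEMA3F, NRP2 and SLIT3.

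The order of the groups differed between the genes, as the plot of levels by group shows. For SEMA3C the means ran downwards from Ross abdominal fat of Fall'12 (14.8 ± 8.47 FPKM, SD, n = 4) through Ross cardiac fat of Fall'12 (11.8 ± 6.01), Illinois cardiac fat (9.13 ± 2.16, n = 8), Ross cardiac fat of Fall'13 (5.10 ± 4.69) and Illinois abdominal fat (4.78 ± 5.69, n = 7) to Ross abdominal fat of Fall'13 (0.480 ± 0.152). The ranges of all neighbours in this order overlapped except those of the last 2 groups. Ross cardiac fat of Fall'12 led the order of the other 3 genes, with 17.3 ± 6.0 FPKM of SEMA3F, 33.3 ± 11.9 of NRP2 and 16.0 ± 3.39 of SLIT3. For SLIT3 this group lay clear of the next, Ross abdominal fat of Fall'12 (7.88 ± 2.96), with no overlap. SEMA3F was lowest in Illinois abdominal fat (2.80 ± 1.26), whereas NRP2 (4.12 ± 3.36) and SLIT3 (2.06 ± 0.883) were lowest in Ross abdominal fat of Fall'13. Among neighbours in the order of SEMA3F, only Ross abdominal fat of the 2 trials had ranges that did not overlap, and among those of NRP2 all overlapped.

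The balance of the 2 semaphorins is given as the ratio of their FPKM. SEMA3C stood above SEMA3F in 1 of 4 Ross cardiac libraries of Fall'13 (ratio 0.180 to 3.17, median 0.336) and in 8 of 8 Illinois cardiac libraries (ratio 1.57 to 2.97, median 2.61). In Ross abdominal fat it did so in 0 of 4 libraries of Fall'13 (ratio 0.0893 to 0.115) and in 3 of 4 of Fall'12 (ratio 0.575 to 3.69). It also did so in 1 of 4 Ross cardiac libraries of Fall'12 (ratio 0.297 to 1.21) and in 4 of 7 Illinois abdominal libraries (ratio 0.207 to 5.43). SEMA3F stood above its receptor NRP2 in 4 of 16 Ross libraries, 1 cardiac and 2 abdominal of Fall'13 and 1 cardiac of Fall'12, and in 0 of 15 Illinois libraries. No test of these ratios was made.

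The trial comparison asked how Ross birds of Fall'13 differed from those of Fall'12 within a depot. In abdominal fat SEMA3C, NRP2 and SLIT3 fell, and in cardiac fat SEMA3F, NRP2 and SLIT3 fell, and no member was called higher in Fall'13 in either depot. Of all 423 genes tested, 22.5% were called lower in Fall'13 in abdominal fat and 9.69% in cardiac fat, so a lower level in Fall'13 was common in abdominal fat. The members' median difference was -1.88 on the log2(FPKM + 1) scale in abdominal fat, beside -0.30 for all genes tested, and -1.16 in cardiac fat, beside -0.17. A gene is called where its adjusted p in limma, over all genes tested, is below 0.05. Another scaling changed the balance of calls over all genes: the 14 higher and 95 lower calls in abdominal fat became 38 and 51 after quantile normalization, with a median of all genes of 0.02, and 38 and 61 after upper quartile scaling. In cardiac fat the 3 higher and 41 lower calls became 18 and 21 after quantile normalization, with a median of 0.05, and 19 and 35 after upper quartile scaling. The members' medians with quantile normalization were -1.45 in abdominal and -0.92 in cardiac fat. Relative depths of the Ross cardiac libraries barely overlapped, at 0.630 to 0.876 in Fall'13 and 0.8715 to 1 in Fall'12. Those of the abdominal libraries were 0.618 to 1.05 in Fall'13 and 0.632 to 0.851 in Fall'12.

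The ligand SEMA3C had 0.256, 0.514, 0.586 and 0.565 FPKM in the Ross abdominal libraries of Fall'13, against 20.8, 21.5, 13.7 and 3.29 FPKM in those of Fall'12. The groups did not overlap, as was so in this direction for 28.8% of the genes tested, and the mean of Fall'12 was 30.9 times that of Fall'13. The difference in log2(FPKM + 1) was -3.17 (SE 0.54, 95% interval -4.27 to -2.07, limma adjusted p = 0.000141). In the cardiac libraries SEMA3C had 12.1, 3.43, 2.69 and 2.18 FPKM in Fall'13, against 6.35, 7.74, 19.4 and 13.8 FPKM in Fall'12. There library 1204 of Fall'13 lay among those of Fall'12, and the difference of -1.21 (SE 0.54, adjusted p = 0.169) was not called. Without library 1204 it was -1.66 (adjusted p = 0.0465), and with the CASQ2-rich libraries left out it was -1.77 (adjusted p = 0.0975).

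The receptor NRP2 had 6.78, 7.26, 1.02 and 1.4 FPKM in the abdominal libraries of Fall'13, against 13.2, 14.2, 33.1 and 20.8 FPKM in those of Fall'12. All libraries of Fall'13 were below all of Fall'12, as for 28.8% of the genes tested. Within Fall'13, libraries 1195 and 1196 were the higher and 1197 and 1198 the lower pair. The difference was -2.25 (SE 0.38, adjusted p = 0.000141). In cardiac fat NRP2 had 8.08, 9.15, 18.1 and 8.52 FPKM in Fall'13, against 17.2, 34.8, 45.9 and 35.2 FPKM in Fall'12, a difference of -1.51 (SE 0.38, adjusted p = 0.00900). Here the highest library of Fall'13 passed the lowest of Fall'12. With the CASQ2-rich libraries left out the cardiac difference was -1.86 (adjusted p = 0.00832).

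The cue SLIT3 had 3.32, 1.72, 1.27 and 1.94 FPKM in the abdominal libraries of Fall'13, against 10.01, 10.5, 6.88 and 4.15 FPKM in those of Fall'12 (difference -1.51, SE 0.32, adjusted p = 0.000918). The groups did not overlap in abdominal fat, as for 28.8% of the genes tested in this direction. In cardiac fat SLIT3 had 7.94, 4.84, 8.003 and 6.61 FPKM in Fall'13, against 20.5, 12.3, 15.6 and 15.5 FPKM in Fall'12. The cardiac groups did not overlap either, which held in this direction for 10.4% of the genes tested. The cardiac difference was -1.11 (SE 0.32, adjusted p = 0.0235). It lost its call without any 1 of the cardiac libraries 1205, 1207 or 1208 (differences -0.98 to -1.10, adjusted p 0.0540 to 0.0829), with the CASQ2-rich libraries left out (-1.10, adjusted p = 0.0757) and after quantile normalization (-0.89, adjusted p = 0.0714).

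The repellent SEMA3F differed least between the trials in abdominal fat. It had 2.87, 4.80, 5.09 and 5.19 FPKM in the abdominal libraries of Fall'13, against 6.28, 5.83, 10.2 and 5.72 FPKM in those of Fall'12, a difference of -0.54 (SE 0.31, 95% interval -1.16 to 0.09) that was not called (adjusted p = 0.209). The groups did not overlap, as was true in the same direction of 28.8% of the genes tested in this comparison. In cardiac fat SEMA3F had 3.82, 8.62, 9.80 and 12.2 FPKM in Fall'13, against 21.4, 12.9, 23.4 and 11.4 FPKM in Fall'12 (difference -0.96, SE 0.31, adjusted p = 0.0418). The cardiac groups overlapped, and the call was lost without any 1 of the cardiac libraries 1204, 1205, 1206, 1208 or 1210 (differences -0.66 to -1.05, adjusted p 0.0506 to 0.171), after quantile normalization (-0.73, adjusted p = 0.171), after upper quartile scaling (-0.79, adjusted p = 0.0989) and with the CASQ2-rich libraries left out (-0.95, adjusted p = 0.118).

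An exact permutation test over the 4 libraries of each trial (two-sided, unadjusted) gave p = 0.0286, the smallest that 4 against 4 allows, for all 4 genes in abdominal fat and for SLIT3 in cardiac fat. The cardiac values were p = 0.0571 for SEMA3F and NRP2 and p = 0.0857 for SEMA3C by the same exact test. After quantile normalization the abdominal differences were -2.88 for SEMA3C, -1.75 for NRP2 and -1.15 for SLIT3, with limma adjusted p of 7.85e-05, 0.00243 and 0.0104 in that order, and -0.16 for SEMA3F (adjusted p = 0.771).

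Markers of other cells differed between the same abdominal libraries. The sum of FBN1, FBLN1 and FBN2, the 3 fibroblast and matrix markers of a list of 12 that are in the table, was 12.9 to 29.1 FPKM in Fall'13 and 42.3 to 395 FPKM in Fall'12, and 2 of the 3 (FBN1 and FBLN1) were called lower in Fall'13. CALD1, the single smooth muscle marker of 6 in the table, was 44.4 to 64.4 FPKM in Fall'13 and 130.0 to 196 FPKM in Fall'12. The heart muscle markers CASQ2 and MYH7B, 2 of 16 in the table, were 0.672 to 5.10 and 0.261 to 6.13 FPKM in Fall'13. In Fall'12 they were 0.001 to 0.502 and 0.001 to 0.0400 FPKM, without overlap, and 0 of 2 were called. The 5 endothelial markers of 13 in the table summed to 174 to 310 FPKM in Fall'13 and 234 to 394 FPKM in Fall'12, with 0 of 5 called by limma. TBX18, a factor of epicardium and mesothelium, was 0.182 to 0.444 FPKM in Fall'13 and 0.979 to 8.99 FPKM in Fall'12, and it was called lower (-2.19, adjusted p = 0.000619). TBX20, the other marker of that list in the table, was 0.0688 to 0.471 FPKM in Fall'13 and 0.001 to 0.633 FPKM in Fall'12. It was not called (-0.14, adjusted p = 0.865). In cardiac fat CHRNA3, a receptor subunit of autonomic neurons, was 0.001 to 0.697 FPKM in Fall'13 and 2.30 to 10.9 FPKM in Fall'12, and it was called lower (-2.47, adjusted p = 0.000432). There the fibroblast sums overlapped, at 51.3 to 575 FPKM in Fall'13 and 107 to 242 FPKM in Fall'12, with 0 of 3 called. The part of these cells in the members' differences was not tested.

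**Figure D2:**
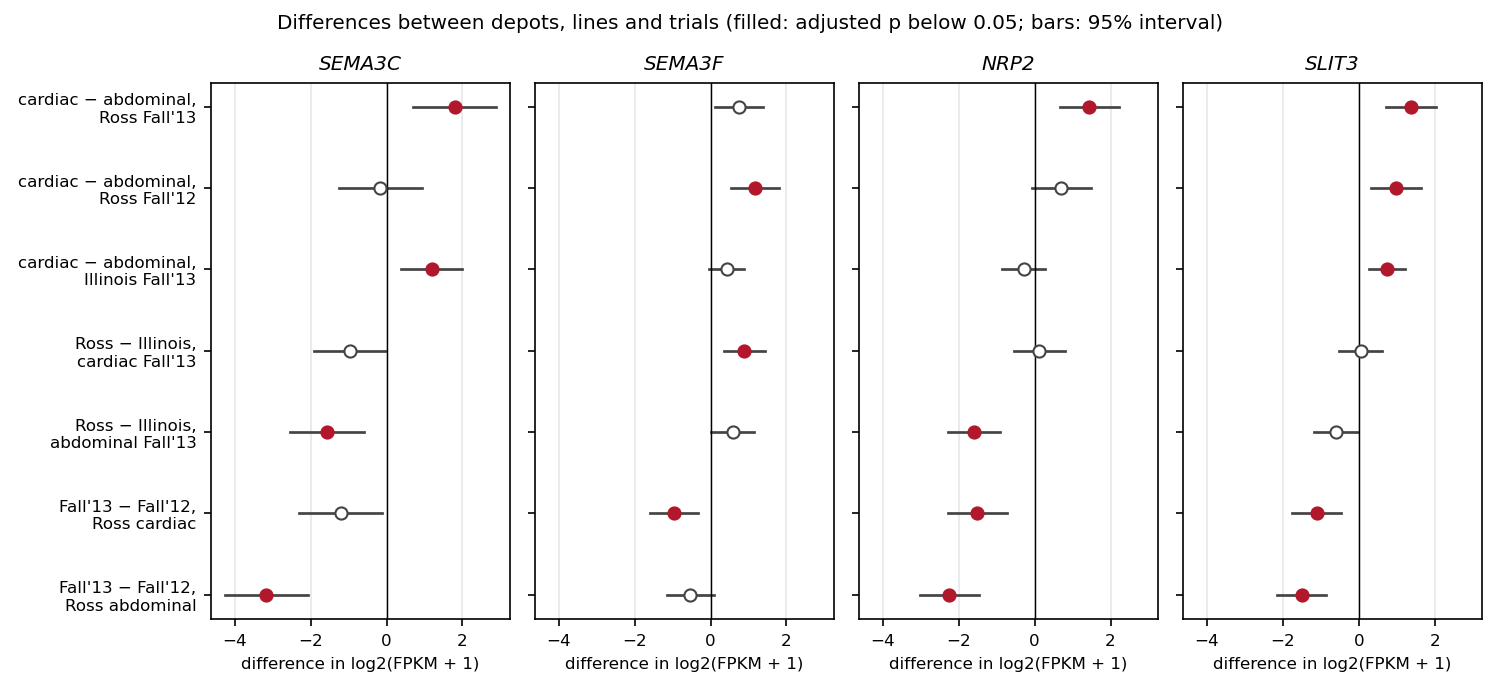
Differences in log2(FPKM + 1) of the 4 genes between depots, lines and trials, with 95% intervals; filled points have an adjusted p below 0.05 in limma. The points for cardiac minus abdominal lie right of 0 for SEMA3F and SLIT3 in every line and trial, and those for Fall'13 minus Fall'12 lie left of 0 for all 4 genes in both depots.

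The depot comparison asked how cardiac fat differs from abdominal fat within a line. SLIT3 was higher in cardiac fat in Ross and in Illinois birds, SEMA3F and NRP2 rose in Ross cardiac fat, and SEMA3C rose in Illinois cardiac fat and in Ross cardiac fat of Fall'13. Over both Ross trials 3 of the 4 genes were called higher in cardiac fat, where 18.7% of all genes tested were, and in Illinois birds 2 of 4, where 8.04% were. The median difference of the members was 1.01 in Ross and 0.58 in Illinois birds, beside 0.10 and -0.02 for all genes tested. Within the Ross trials 3 of 4 genes were called higher in Fall'13, beside 12.1% of all genes, and 2 of 4 in Fall'12, beside 8.27%. After quantile normalization the 79 higher and 43 lower calls over all genes in Ross birds became 59 and 63, with a median of -0.01, and the same 3 members remained called. In Fall'13 the 51 higher and 16 lower calls became 34 and 39 after quantile normalization and 55 and 31 after upper quartile scaling. In Fall'12 the 35 and 20 became 27 and 33 after quantile normalization. Quantile normalization left 2 members called in Fall'13, with NRP2 lost, and 1 in Fall'12, with SLIT3 lost. In Illinois birds 34 higher and 47 lower calls became 39 and 70 after quantile normalization, where SEMA3C stayed called and SLIT3 did not. After upper quartile scaling they became 53 and 43, with a median of 0.10, and both genes stayed called. Relative depths in Ross Fall'12 were 0.8715 to 1 in cardiac and 0.632 to 0.851 in abdominal libraries, so depot and depth cannot be told apart there. They overlapped in Ross Fall'13, and in Illinois birds only through cardiac library 1111, at 1.29 beside 1.13 to 1.55 in abdominal ones.

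SLIT3 averaged 11.4 ± 5.44 FPKM in Ross cardiac fat and 4.97 ± 3.71 FPKM in Ross abdominal fat (SD, n = 8 each). Cardiac values did not overlap with abdominal ones within Fall'13 or within Fall'12, and the cardiac mean was 3.32 times the abdominal in Fall'13 and 2.03 times in Fall'12. The mean difference over the trials was 1.18 (SE 0.23, adjusted p = 0.000283), made up of 1.38 in Fall'13 (adjusted p = 0.00339) and 0.98 in Fall'12 (adjusted p = 0.0376). Groups without overlap in this direction made up 18.2% of the genes tested in Fall'13 and 11.3% in Fall'12. The call in Fall'12 was lost without any 1 of the libraries 1201, 1202, 1208, 1210 or 1211 (differences 0.74 to 0.99, adjusted p 0.0577 to 0.161) and without both CASQ2-rich libraries 1208 and 1209 (0.97, adjusted p = 0.161). The mean over the trials was then 1.17 (adjusted p = 0.00142).

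In Illinois birds SLIT3 lay between 3.71 and 13.6 FPKM in cardiac fat (median 6.62, n = 8), against 1.97 and 5.62 FPKM in abdominal fat (median 3.14, n = 7). The ranges overlapped, but 8 of 8 cardiac libraries were above the abdominal median. The difference was 0.74 (SE 0.23, adjusted p = 0.0251; exact permutation test, two-sided, p = 0.0143). It was 0.86 (adjusted p = 0.0174) with the CASQ2-rich libraries left out. The call was lost without any 1 of the libraries 1097, 1098, 1108 or 1110 (differences 0.60 to 0.68, adjusted p 0.0520 to 0.0631) and after quantile normalization (0.55, adjusted p = 0.0766).

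SEMA3F averaged 12.9 ± 6.51 FPKM in Ross cardiac fat and 5.74 ± 2.06 FPKM in Ross abdominal fat (SD, n = 8 each), a difference of 0.95 (SE 0.22, adjusted p = 0.00164). Within Fall'12 the depots did not overlap, as for 11.3% of the genes tested in this direction (difference 1.17, limma adjusted p = 0.0103). Their relative depths did not overlap either. Within Fall'13 cardiac library 1204, at 3.82 FPKM, lay among the abdominal ones, and the difference of 0.74 was not called (adjusted p = 0.0966). Without it the difference was 1.041 (adjusted p = 0.0181). In Illinois birds SEMA3F ran from 2.51 to 5.73 FPKM in cardiac fat (median 3.89) and from 1.32 to 4.56 FPKM in abdominal fat (median 3.19), a difference of 0.43 (95% interval -0.03 to 0.89, adjusted p = 0.207) that was not called. With the CASQ2-rich libraries left out the value was 0.95 (adjusted p = 0.00629) in Ross birds, 1.16 (adjusted p = 0.0786) in Fall'12 alone, and 0.53 (adjusted p = 0.147) in Illinois birds.

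SEMA3C differed between the depots by 0.81 over the Ross trials (SE 0.38, adjusted p = 0.114), which was not called, and by 1.09 (adjusted p = 0.0697) with the CASQ2-rich libraries left out. In Fall'13 the cardiac libraries, from 2.18 to 12.1 FPKM, all lay above the abdominal ones, from 0.256 to 0.586 FPKM, and the cardiac mean was 10.6 times the abdominal (difference 1.79, SE 0.54, adjusted p = 0.0196). Groups without overlap in this direction made up 18.2% of the genes tested. Without cardiac library 1204 the ratio of means was 5.76 and the difference 1.34 (limma adjusted p = 0.0999). In Fall'12 the ranges overlapped, from 6.35 to 19.4 FPKM in cardiac and from 3.29 to 21.5 FPKM in abdominal fat, and the difference was -0.17 (95% interval -1.27 to 0.93, adjusted p = 0.863). Without libraries 1208 and 1209 that difference was 0.39 (adjusted p = 0.842), and it was 0.06, 0.07 and 0.09 without library 1208, 1199 or 1200.

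In Illinois birds SEMA3C was even across cardiac libraries, at 6.31 to 12.0 FPKM (median 9.27), and uneven across abdominal ones, at 0.686 to 17.3 FPKM (median 2.78). All 8 cardiac libraries lay above the abdominal median, and 1 abdominal library, 1092, lay above every cardiac one. The difference was 1.19 (SE 0.39, adjusted p = 0.0315; exact permutation test, two-sided, p = 0.0113), and 1.53 (adjusted p = 0.00171) without library 1092. With the CASQ2-rich libraries left out it was 1.24 (adjusted p = 0.0481). The call was lost without any 1 of the libraries 1093, 1094, 1097, 1098, 1099, 1108, 1110 or 1111 (differences 0.96 to 1.18, adjusted p 0.0518 to 0.0951). In library 1092 FBN1, which encodes the matrix protein fibrillin, was 489 FPKM, beside 14.8 to 76.4 FPKM in the other 6 abdominal libraries. FBLN1 was also the highest of the group there, at 14.5 FPKM, but FBN2, at 6.01 FPKM, was not.

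NRP2 averaged 22.1 ± 14.6 FPKM in Ross cardiac fat and 12.2 ± 10.8 FPKM in Ross abdominal fat (SD, n = 8 each), a difference of 1.07 (SE 0.27, adjusted p = 0.00383), or 1.24 (adjusted p = 0.00334) with the CASQ2-rich libraries left out. In Fall'13 the depots did not overlap, as for 18.2% of the genes tested in this direction, and the difference was 1.44 (SE 0.38, limma adjusted p = 0.0104). That call was lost without library 1197 or library 1206 (differences 1.08 and 1.19, adjusted p = 0.0581 and 0.0539). In Fall'12 the difference was 0.70 (95% interval -0.08 to 1.47, adjusted p = 0.244), or 1.041 (adjusted p = 0.203) without libraries 1208 and 1209. In Illinois birds NRP2 was 7.06 to 14.9 FPKM in cardiac fat (median 9.03) and 7.66 to 16.1 FPKM in abdominal fat (median 11.1), with a difference of -0.29 (95% interval -0.86 to 0.28, adjusted p = 0.536), or -0.41 (adjusted p = 0.385) without the CASQ2-rich libraries.

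The depot effect of NRP2 differed between the lines. Within Fall'13 the Ross depot difference less the Illinois one was 1.72 (SE 0.47, 95% interval 0.76 to 2.69, adjusted p = 0.0336), a contrast in which 3.31% of the genes tested were called, with 14 genes higher and 0 lower, or 7 and 3 after quantile normalization. The value was 1.84 (adjusted p = 0.0297) with the CASQ2-rich libraries left out. The call was lost without any 1 of the Ross libraries 1197, 1198 or 1206 (1.37 to 1.48, adjusted p 0.0828 to 0.0929), after quantile normalization (1.44, adjusted p = 0.10) and after upper quartile scaling (1.54, adjusted p = 0.0689). The same contrast was not called for SEMA3C (0.61, 95% interval -0.75 to 1.97), SEMA3F (0.31, -0.46 to 1.09) or SLIT3 (0.64, -0.17 to 1.45). Between the Ross trials the depot effect of SEMA3C differed by 1.96 (SE 0.76, adjusted p = 0.202), which was not called, nor was that of the other 3 genes (-0.43 to 0.74), in a contrast with 1.18% of genes called. With the CASQ2-rich libraries left out, the differences between lines were 0.56 for SEMA3C, 0.21 for SEMA3F and 0.52 for SLIT3, and those between trials were 1.402 for SEMA3C and -0.42 to 0.41 for the other genes, none of them called.

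Markers that moved between the depots stood beside these results. TBX18 and TBX20, the 2 genes in the table from a list of 7 for mesothelium and epicardium, summed to 17.4 to 88.1 FPKM in Ross cardiac fat and 0.266 to 9.26 FPKM in Ross abdominal fat. In Illinois birds they summed to 20.2 to 51.7 FPKM in cardiac fat and 0.621 to 8.24 FPKM in abdominal fat. The highest Ross sum was that of the CASQ2-rich library 1208, with 78.0 FPKM of TBX20 and 10.1 FPKM of TBX18. TBX20 was 35.0, 15.1 and 12.3 FPKM in the CASQ2-rich libraries 1112, 1107 and 1209, so its level may not stand for epicardium alone. CHRNA3, the 1 of 19 neural markers in the table, was 2.30 to 10.9 FPKM in Ross cardiac fat of Fall'12 and 0.001 to 0.276 FPKM in the abdominal fat of that trial, but 0.001 to 0.697 FPKM in Ross cardiac fat of Fall'13 and 0.0701 to 0.410 FPKM in abdominal fat of Fall'13. It was 0.0369 to 7.06 FPKM in Illinois cardiac and 0.0478 to 0.148 FPKM in Illinois abdominal fat. The fibroblast sums were 51.3 to 575 FPKM in Ross cardiac fat of Fall'13 and 12.9 to 29.1 FPKM in the abdominal fat of that trial, with 2 of 3 markers called higher. In Fall'12 they overlapped, at 107 to 242 FPKM in Ross cardiac and 42.3 to 395 FPKM in Ross abdominal fat, with 0 of 3 called. In Illinois birds 1 of 3 was called higher and 1 lower. Of the 5 endothelial markers, 2 were called lower in Ross cardiac fat and 3 in Illinois cardiac fat. Of the 2 fat cell markers, PPARG was called lower in Ross cardiac fat (-0.79, adjusted p = 0.0282), and PPARG (-1.21, adjusted p = 0.00187) and FABP4 (-1.64, adjusted p = 0.000993) in Illinois cardiac fat. FABP4 was 1959 to 15239 FPKM in Illinois cardiac and 16183 to 29593 FPKM in Illinois abdominal fat, with no overlap. In Ross cardiac fat the smooth muscle marker CALD1 was called lower (-0.62, adjusted p = 0.0188) and IGJ, a chain of secreted antibodies, higher (2.33, adjusted p = 0.0237). IGJ was not called within Fall'13 (1.70, adjusted p = 0.321) or within Fall'12 (2.96, adjusted p = 0.0757). PTPRC, the other white blood cell marker in the table, was not called in Ross cardiac fat (-0.06, adjusted p = 0.915). The CALD1 difference was -0.07 in Fall'13 (adjusted p = 0.917) and -1.17 in Fall'12 (adjusted p = 0.00652). In Illinois cardiac fat the heart muscle marker MYH7B was called higher (2.98, adjusted p = 0.0248). MYH7B was 53.0 and 163 FPKM in the CASQ2-rich libraries 1107 and 1112, and at most 11.3 FPKM in the other Illinois cardiac libraries. The part of these cells in the members' values was not tested.

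The line comparison set Ross against Illinois birds within Fall'13, since Illinois libraries came from no other trial. In abdominal fat NRP2 and SEMA3C were lower in Ross birds, where 12.5% of the genes tested were called lower, and in cardiac fat SEMA3F was higher, where 4.49% were called higher. The other 5 of these 8 differences were not called. Over all genes the 14 higher and 53 lower calls in abdominal fat became 31 and 37 after quantile normalization, with a median of -0.02 against -0.15 without it. The 19 higher and 5 lower calls in cardiac fat became 20 and 12 after quantile normalization, and 9 and 22 after upper quartile scaling, with a median of -0.11 against 0.06 without it. Relative depths were 0.618 to 1.05 in the Ross abdominal libraries of Fall'13 and 1.13 to 1.55 in the Illinois ones, so line and depth cannot be told apart there. In cardiac fat they were 0.630 to 0.876 in Ross and 0.887 to 1.29 in Illinois libraries, also without overlap.

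In abdominal fat NRP2 was 1.02 to 7.26 FPKM in the 4 Ross libraries and 7.66 to 16.1 FPKM in the 7 Illinois libraries, with no overlap, as was so in this direction for 8.27% of genes. The difference was -1.60 (SE 0.34, adjusted p = 0.00274; exact permutation test, two-sided, p = 0.00303, the smallest it can give). SEMA3C was 0.256 to 0.586 FPKM in Ross and 0.686 to 17.3 FPKM in Illinois libraries (difference -1.56, SE 0.48, adjusted p = 0.0266), and the Illinois mean was 9.96 times the Ross mean, or 5.61 times without Illinois library 1092. The ranges of SEMA3C also did not overlap, but the highest Ross value and the lowest Illinois value, of library 1094, were close. The call of SEMA3C was lost without any 1 of the libraries 1092, 1195, 1196, 1197 or 1198 (differences -1.22 to -1.60, adjusted p 0.0522 to 0.0625) and with an additive trial term (-1.07, adjusted p = 0.116). The fibroblast sums were 12.9 to 29.1 FPKM in these Ross and 24.2 to 510 FPKM in the Illinois libraries, with 2 of 3 markers called lower, and of the 5 endothelial markers 1 was called lower. The part of these cells in the line differences was not tested. SLIT3 differed by -0.59 (95% interval -1.17 to -0.01, adjusted p = 0.151) and SEMA3F by 0.58 (0.02 to 1.13, adjusted p = 0.139).

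In cardiac fat SEMA3F was 3.82, 8.62, 9.80 and 12.2 FPKM in the Ross libraries and 2.51 to 5.73 FPKM (median 3.89) in the 8 Illinois libraries. Library 1204 was the 1 Ross library inside the Illinois range. The difference was 0.89 (SE 0.27, adjusted p = 0.0449; exact permutation test, two-sided, p = 0.0101). The call was lost without any 1 of 13 of the 31 libraries, with differences of 0.71 to 0.92 and adjusted p of 0.0501 to 0.157: the Ross cardiac libraries 1205, 1206 and 1207, the Illinois cardiac libraries 1107, 1108, 1109, 1112 and 1113, and the abdominal libraries 1098, 1197, 1198, 1199 and 1200, which enter only the shared estimate of the spread. It was lost as well after upper quartile scaling (0.74, adjusted p = 0.0832) and with the CASQ2-rich libraries left out (0.79, adjusted p = 0.0972). SEMA3C differed by -0.96 (95% interval -1.91 to -0.01, adjusted p = 0.224), NRP2 by 0.12 (-0.55 to 0.79) and SLIT3 by 0.05 (-0.52 to 0.62). With the CASQ2-rich libraries left out these were -1.01, 0.24 and -0.070, none of them called.

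The low SEMA3C and NRP2 levels of Ross abdominal fat of Fall'13 enter the trial comparison, the Ross depot comparison of Fall'13, the abdominal line comparison and the difference of depot effects between lines, which thus share these 4 libraries. With the Ross abdominal libraries of Fall'12 in their place, at 3.29 to 21.5 FPKM of SEMA3C and 13.2 to 33.1 FPKM of NRP2, the ranges overlap those of Illinois abdominal fat. The Ross means of Fall'12, 14.8 FPKM of SEMA3C and 20.3 FPKM of NRP2, were above the Illinois means of 4.78 and 12.0 FPKM. That setting crosses the trials, so line and trial cannot be told apart in it.

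Across the 31 libraries SEMA3C and SLIT3 varied together most closely of the 6 pairs of members, with Pearson's r of 0.752 and Spearman's coefficient of 0.761 for log2(FPKM + 1). The libraries share groups and depth, so these are descriptions. Among deviations from the 6 group means r was 0.521 for this pair. It was 0.828 over the 8 Illinois cardiac and 0.657 over the 7 Illinois abdominal libraries, and r within the Ross groups was not computed. In Ross abdominal fat of Fall'13 library 1195 had the lowest SEMA3C (0.256 FPKM) and the highest SLIT3 (3.32 FPKM). Library 1197 had the highest SEMA3C (0.586 FPKM) and the lowest SLIT3 (1.27 FPKM) of that group. SEMA3C and SLIT3 each ranked 6 in likeness to the other among the genes tested. The receptor NRP2 and its ligand SEMA3F had r = 0.453 over all libraries and 0.0114 among deviations from group means, and NRP2 and SEMA3C had 0.550 and -0.00924. SEMA3C and SEMA3F had 0.241 and -0.174, the lowest of the 6 pairs over all libraries. SLIT3 had r = 0.642 with NRP2 and 0.581 with SEMA3F over all libraries, and 0.0553 and -0.0932 among deviations from group means.

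**Figure D3:**
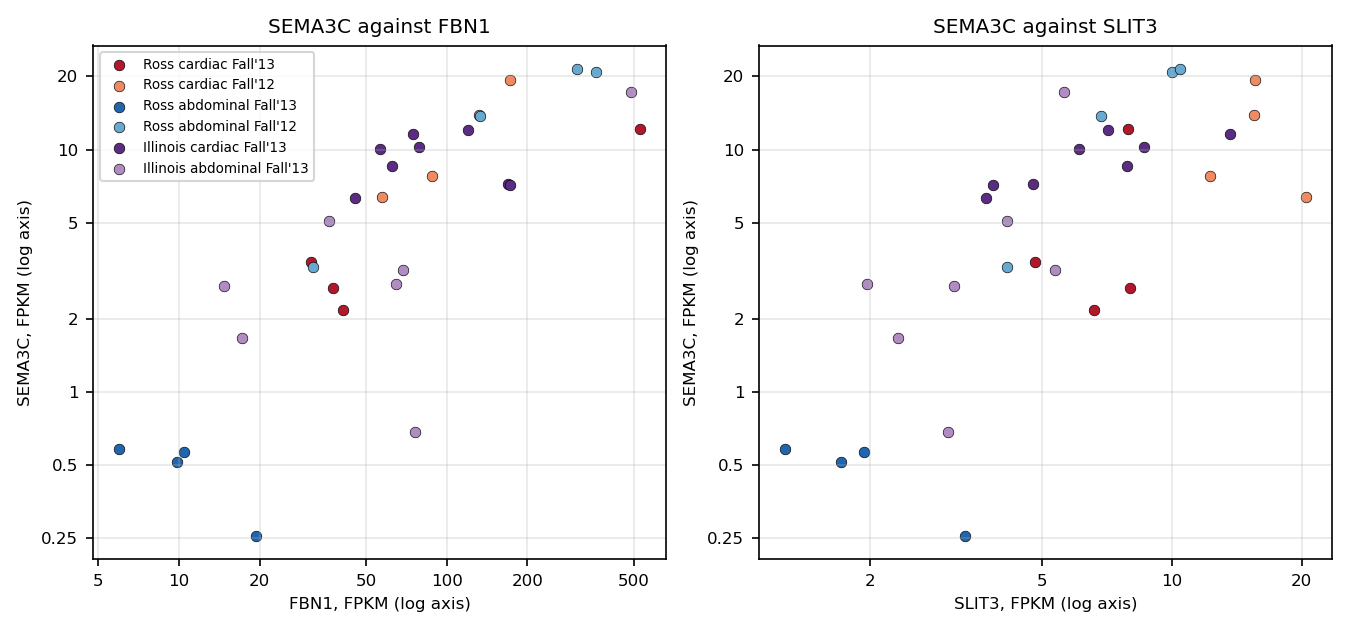
SEMA3C against FBN1 and against SLIT3, in FPKM on log axes, with 1 point for each of 31 libraries coloured by group. Ross abdominal libraries of Fall'13 lie at the low end of both plots, with FBN1 at 5.97 to 19.3 FPKM, and r over all libraries was 0.837 with FBN1 and 0.752 with SLIT3.

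The genes most like each member by Pearson's r over the 31 libraries were of different kinds. For SEMA3C they were MMP2, a matrix metalloproteinase (r = 0.854, Spearman's coefficient 0.830), FBN1 (r = 0.837, Spearman's coefficient 0.840) and CHRDL1, a secreted BMP antagonist (r = 0.815, Spearman's coefficient 0.796), and r stayed at 0.747, 0.726 and 0.635 among deviations from group means. For SLIT3 they were FKBP1B, which binds calcium release channels (r = 0.825), the Wnt receptor FZD1 (r = 0.811) and CHRDL1 (r = 0.798), with 0.394, 0.558 and 0.482 among deviations. For SEMA3F they included the G protein subunit GNA11 (r = 0.756) and FKBP1B (r = 0.698), with 0.397 and 0.167 among deviations. For NRP2 they were the kinase CSNK1E (r = 0.766), the matricellular protein THBS1 (r = 0.746) and the helicase RECQL5 (r = 0.740), with 0.396, 0.455 and 0.114 among deviations. CHRDL1 was thus named for SEMA3C and SLIT3, and FKBP1B for SLIT3 and SEMA3F.

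Of 102 other genes of axon guidance on a list, 14 were in the table and 9 were tested. None of them is a plexin, a ROBO receptor or NRP1, which were not analysed here. DPYSL3 encodes a collapsin response mediator protein that links guidance signals to the cytoskeleton. It was called higher in cardiac fat of Illinois birds (0.86, adjusted p = 0.0497) and over both Ross trials (1.26, adjusted p = 0.00220). The Ross depot difference was 2.13 in Fall'13 (adjusted p = 0.000721) and 0.39 in Fall'12 (adjusted p = 0.605), which was not called. In Fall'13 DPYSL3 averaged 51.8 ± 22.0 FPKM in Ross cardiac and 10.5 ± 1.84 FPKM in Ross abdominal fat (SD, n = 4 each). In Fall'12 it averaged 39.7 ± 5.47 FPKM in Ross cardiac and 37.0 ± 23.0 FPKM in Ross abdominal fat. In Ross abdominal fat it was lower in Fall'13 than in Fall'12 (difference -1.44, adjusted p = 0.0121). Its relative DPYSL2 was also lower in Fall'13 in abdominal fat (-0.69, adjusted p = 0.0258).

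RGMA, a membrane-bound repellent, was higher in Fall'13. It averaged 35.6 ± 8.88 FPKM in Ross abdominal fat of Fall'13 and 14.2 ± 1.5 FPKM in that of Fall'12 (difference 1.24, adjusted p = 0.00298), and 26.0 ± 9.38 FPKM in Ross cardiac fat of Fall'13 and 12.9 ± 4.41 FPKM in that of Fall'12 (0.96, adjusted p = 0.0418). It was lower in Illinois cardiac than in Illinois abdominal fat (-0.63, adjusted p = 0.0435). LIMK1, a kinase that acts on cofilin, was higher in Ross than in Illinois birds in cardiac (0.74, adjusted p = 0.00705) and abdominal fat (0.67, adjusted p = 0.00817), and VAV2, a guanine nucleotide exchange factor, in abdominal fat (0.70, adjusted p = 0.0425).

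SLIT2, the relative of SLIT3, was not called in any of the 10 comparisons. It averaged 4.89 ± 3.58 FPKM in Ross abdominal fat of Fall'13 and 8.85 ± 2.05 FPKM in that of Fall'12, and 8.30 ± 4.54 FPKM in Illinois cardiac and 4.38 ± 3.27 FPKM in Illinois abdominal fat (SD). By comparison, the counts of the 9 listed genes called were 2 lower and 1 higher for the trial in abdominal fat, 1 higher in cardiac fat, 1 higher for the Ross depots, and 1 higher and 1 lower for the Illinois depots. Over all genes tested, 22.5% were called lower and 3.31% higher in the abdominal trial comparison, and 0.709% higher in the cardiac one. In the depot comparisons 18.7% were called higher in Ross birds, and 8.04% higher and 11.1% lower in Illinois birds. For the lines 2 of the listed genes were called higher in abdominal fat, beside 3.31% of all genes, and 1 in cardiac fat, beside 4.49%. The list's medians were -0.17, 0.18, -0.03 and -0.10 in the trial and depot comparisons, in the order given. Of 9 VEGF ligands and receptors, 2 were in the table. FIGF, a lymphatic growth factor that binds NRP2 in mammals, rose in Ross cardiac fat (0.89, adjusted p = 0.00565), and FLT1, a VEGF receptor, fell in Illinois cardiac fat (-0.82, adjusted p = 0.0209). None of 4 convertases of the furin type was in the table.

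**Figure D4:**
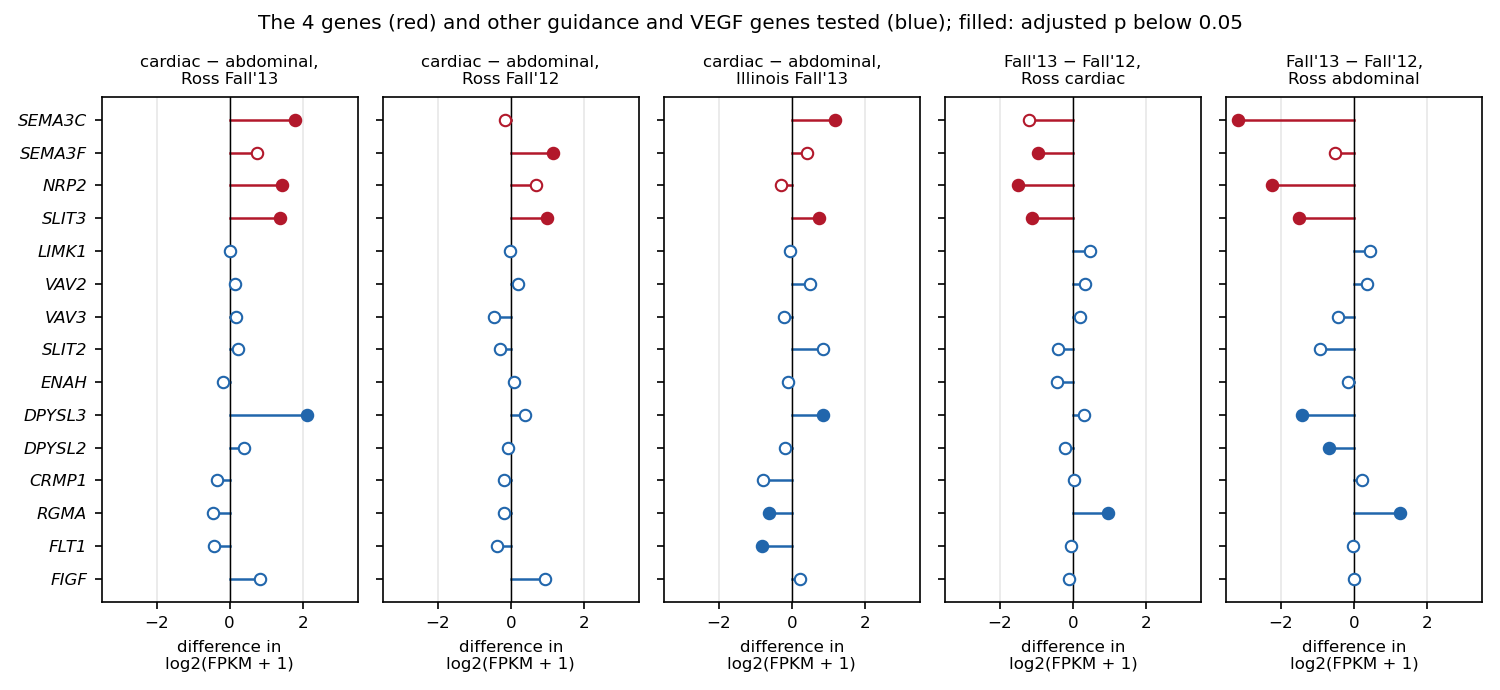
Differences in log2(FPKM + 1) of the 4 genes (red) and of the 11 other guidance and VEGF genes tested (blue) between depots and trials; filled points have an adjusted p below 0.05 in limma. DPYSL3 lies on the same side as SEMA3C and SLIT3 in Ross Fall'13 and Illinois depots and in abdominal fat between trials, and RGMA on the opposite side between trials.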

How the data were processed

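PolyA RNA of frozen fat was read by stranded Illumina sequencing, per the labels' protocols. The submitters' processing notes name Bowtie, TopHat and Cufflinks. Their versions, like the build and annotation used, are not given in the sources here. The authors' deposited values were taken as FPKM, since Cufflinks makes that unit and the headers name none. Of 567 lines, 566 were complete, and 564 genes remained after removal of 2 duplicate lines. All 4 members have the same symbol and number in the RefSeq table of assembly GRCg7b, used for names only.

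Values were analysed as log2(FPKM + 1), which understates changes of low genes, with limma 3.58.1 in R 4.3.3 and statmod 1.5.0. A gene was tested where 7 or more libraries reached 1 FPKM, which left 423 genes. The fit held 6 group means over all 31 libraries, with trend and robust moderation. Tests were two-sided with Benjamini-Hochberg adjustment over these genes. Exact permutation tests and correlations used numpy 2.4.6, pandas 2.3.3 and scipy 1.17.1. The steps were tested on simulated data. The members, lists and tests were chosen with earlier results of these data known. Named are the 4 members, the listed guidance genes called in a comparison, the 3 genes most like each member (1 is not reported here), and markers where they move with a result. The labels do not say whether libraries came from separate birds, and the p-values cover only the spread among libraries, which may be technical. Relative depth came from 1772 low values in 134 genes, of which 94.7% lay within 0.05 fragments of a whole number, with depths and steps both fitted to that end.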

Additional observations from a re-analysis of the deposited data

Results flagged for a closer look

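In 6 of 24 sets of values (4 genes in 6 groups), 1 library stood far from the others of its group by Dixon's test on FPKM. The test flags about 1 group in 20 by chance where values are normally distributed. It was not made on the log2(FPKM + 1) scale of the other tests, where high values stand out less. SEMA3C was 12.1 FPKM in Ross cardiac library 1204 of Fall'13, beside 2.18 to 3.43 FPKM in the other 3, and 17.3 FPKM in Illinois abdominal library 1092, beside 0.686 to 5.09 FPKM in the other 6. SEMA3F was 2.87 FPKM in Ross abdominal library 1195 of Fall'13, beside 4.80 to 5.19 FPKM, and 10.2 FPKM in Ross abdominal library 1201 of Fall'12, beside 5.72 to 6.28 FPKM. NRP2 was 18.1 FPKM in Ross cardiac library 1206 of Fall'13, beside 8.08 to 9.15 FPKM, and 14.9 FPKM in Illinois cardiac library 1112, one of the CASQ2-rich libraries, beside 7.06 to 10.3 FPKM.

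Both libraries with SEMA3C flagged on the FPKM scale also held the highest FBN1 of their groups. It was 527 FPKM in library 1204, beside 31.02 to 40.8 FPKM in the other 3, and 489 FPKM in library 1092. FBLN1 was the highest of its group in library 1092 (14.5 FPKM) but not in library 1204 (46.4 FPKM, beside 69.9 in library 1206). FBN2 was the highest of its group in neither, at 6.01 FPKM in library 1092 and 1.06 FPKM in library 1204. FBN1 was also among the 3 genes most like SEMA3C over the 31 libraries, so its match here is not independent of that. The part of fibroblasts in these values was not tested.

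The depot effect of NRP2 differed between the lines by 1.72 (limma adjusted p = 0.0336). No other of the 4 genes was called in this contrast. Their intervals overlapped that of NRP2 (0.76 to 2.69), and no test between genes was made. The NRP2 call was lost without any of the Ross libraries 1197, 1198 or 1206. It was also lost after quantile normalization, after upper quartile scaling and in a fit of only the groups compared.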

How the results depend on the processing

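Of 40 differences of the 4 genes, 20 were called, and 8 of these kept their call under every alternative run: SEMA3C, NRP2 and SLIT3 between trials in abdominal fat, SEMA3F, NRP2 and SLIT3 between Ross depots, NRP2 between lines in abdominal fat, and SLIT3 between depots in Ross Fall'13. The other 12 lost it somewhere and 0 changed sign. Of the 20 not called, 4 gained a call somewhere and 4 changed sign. The cause of these changes was not tested. Some alternatives use a smaller number of libraries or genes.

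With log2(FPKM + 0.1) SEMA3C between Ross depots was called (1.35), and calls were lost for SLIT3 between Ross Fall'12 depots (1.07), SEMA3F between lines in cardiac fat (1.03) and SEMA3F between trials in cardiac fat (-1.05). With no filter SEMA3F between lines in cardiac fat lost its call (0.89, adjusted p = 0.054), and with at least 5 FPKM in 7 libraries SEMA3F between trials in cardiac fat did (-0.96). Quantile normalization ended calls of SLIT3 between Illinois depots (0.55), NRP2 (1.11) and SLIT3 (0.83) between Ross depots of Fall'13 and Fall'12 in that order, SEMA3F (-0.73) and SLIT3 (-0.89) between trials in cardiac fat, and NRP2 in Ross less Illinois depot effects (1.44). Upper quartile scaling ended those of SEMA3F between lines (0.74) and trials (-0.79) in cardiac fat and of NRP2 in Ross less Illinois (1.54), and turned the uncalled cardiac line differences of NRP2 (-0.063) and SLIT3 (-0.12).

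A fit of only the groups compared ended calls of SLIT3 between depots in Illinois (0.74) and Ross Fall'12 (0.98), NRP2 between Ross Fall'13 depots (1.44), SEMA3C between lines in abdominal fat (-1.56), SEMA3F between lines in cardiac fat (0.89), SEMA3F (-0.96) and NRP2 (-1.51) between trials in cardiac fat, and NRP2 in Ross less Illinois (1.72). An additive trial term has 1 depot effect for both trials and 1 trial effect for both depots, and so gives no value within a trial and no trial difference of a single depot. It ended calls of SEMA3C between Illinois depots (1.19) and between lines in abdominal fat (-1.07). Its pooled trial effects of SEMA3F (-0.75) and SEMA3C (-2.19) were called, where SEMA3F in abdominal and SEMA3C in cardiac fat had not been. It turned NRP2 (-0.062) and SLIT3 (-0.047) between lines in cardiac fat and SEMA3C in Ross less Illinois (-0.37). With the CASQ2-rich libraries left out, calls ended for SEMA3F (1.16) and SLIT3 (0.97) between Ross Fall'12 depots, SEMA3F between lines (0.79), and SEMA3F (-0.95) and SLIT3 (-1.10) between trials in cardiac fat, and SEMA3C between Ross Fall'12 depots (0.39) and SLIT3 between lines in cardiac fat (-0.070) changed sign.

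Column headers hold a second number shared by a cardiac and an abdominal library in 15 cases. Deviations from group means correlated over 0.1 in 9 of 15 such pairs (median r 0.129), and 8 of 15 cardiac libraries were closest to their own number, a hint from the data and not the design. A replicate block on this number, chosen after seeing the data, ended the call of SEMA3C between Illinois depots (1.25, adjusted p = 0.0531) and gained SEMA3F between Ross Fall'13 depots (0.74, adjusted p = 0.0327). It moved the genes called from 81 to 88 between Illinois depots, 122 to 135 between Ross depots and 14 to 27 in Ross less Illinois, and changed no other call of the 4 genes.

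Leaving out 1 library at a time gave 0.96 to 1.53 for SEMA3C and 0.60 to 0.83 for SLIT3 between Illinois depots. Between Ross Fall'13 depots it gave 1.34 to 2.02 for SEMA3C, 0.56 to 1.041 for SEMA3F and 1.08 to 1.76 for NRP2, and between Ross Fall'12 depots -0.71 to 0.086 for SEMA3C and 0.74 to 1.13 for SLIT3. Between lines it gave -1.79 to -1.22 for SEMA3C in abdominal fat, and 0.71 to 1.19 for SEMA3F, -0.13 to 0.23 for NRP2 and -0.043 to 0.19 for SLIT3 in cardiac fat. Between trials in cardiac fat it gave -1.66 to -0.95 for SEMA3C, -1.14 to -0.66 for SEMA3F and -1.22 to -0.98 for SLIT3, and in Ross less Illinois 1.37 to 2.05 for NRP2.

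Counts of all genes called moved over 1.5 times for Ross Fall'12 depots, at 55 and then 35 with only the groups compared and 21 without the CASQ2-rich libraries. Lines in cardiac fat had 24, and 1 with only the groups compared. Trials in cardiac fat had 44, and 18 with at least 5 FPKM and 13 with only the groups compared, while the additive term's trial effect, pooled over depots, had 133. Ross less Illinois had 14, and 27 with log2(FPKM + 0.1), 28 with at least 5 FPKM, 6 with only the groups compared and 46 with the additive term. Fall'13 less Fall'12 depot effects had 5, and 15 with no filter and 2 after quantile normalization. Leaving out 1 library moved some counts over 1.5 times: Ross Fall'13 depots from 67 to 43 (library 1206), lines in abdominal fat from 67 to 32, 41 and 37 (1196, 1197, 1198), lines in cardiac fat from 24 to 8 to 12 (1205, 1206, 1207, 1112 or 1113), trials in cardiac fat from 44 to 26 and 29 (1205, 1207), Ross less Illinois from 14 to 7 (1206 or 1198) or to 22 to 33 (1096, 1110, 1111, 1113 or 1114), and Fall'13 less Fall'12 from 5 to between 0 and 10, in 20 of 31 cases. Total depth is unknown, and 1 fragment stood for about 0.0295 FPKM in a typical gene with readable steps.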
